A study of Vitis labrusca x Vitis vinifera with 9 samples.

Results

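Hydrogen cyanamide (HC), a nitrogen compound sprayed on vines to force buds open, was compared directly with pruning (P), the cutting back of the cane above a bud. The comparison rested on 6 of the 9 arrays of the series, 3 from HC buds and 3 from P buds, and was taken for each of 30128 probes as the difference HC minus P. The other 3 arrays held buds given both treatments (PHC). All buds were dormant, came from mature canes of a Vitis labrusca x Vitis vinifera grapevine, named Kyoho in the study's methods, and were sampled 24 h after treatment. On every array the RNA of treated buds carried the dye Cy5 and the RNA of control buds, sprayed with water on unpruned canes, carried Cy3. A value is therefore log2 of treated over control, 1 unit is a 2-fold step, and a dye effect common to all arrays cancels in HC minus P. Pruned canes of the P group received water.

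The labels and the methods differ on the HC canes. The labels place the HC buds on pruned canes, and the methods state that HC was sprayed without pruning. Under the labels the groups differ in HC alone, whereas under the methods they differ in HC and in the cut, and these cannot be told apart from the arrays. Each sample was a pool of whole buds from 1 vineyard, so a change in RNA per cell and a change in the share of a tissue cannot be told apart. The methods describe 3 replications, and nothing says that they came from separate vines. The p-values therefore measure the spread between these pools.

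Bud dormancy is a reversible arrest in which the meristem is kept but does not grow. HC is known in grapevine buds to inhibit catalase, to disturb respiration and to precede the expression of genes seen under low oxygen. Pruning removes the growing points above a bud and with them the auxin that holds the bud back, and resumption of growth requires DNA replication, cell division and loosening of the cell wall.

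The probes carry the gene identifiers of the grapevine gene set (GSVIVT numbers), 1 probe per gene. Names come from the Arabidopsis homolog given with the arrays, which is meant wherever an AT identifier follows a name, or from the study's tables. Genes in those tables were chosen by the study on these same arrays, so their direction is not independent evidence. The 60-base probes themselves were not among the values analysed here. The sequences printed are the primers with which the study followed 3 genes whose probes passed the test in this contrast, shown because they fix which transcripts are meant. VvHB2 is a plant hemoglobin (GSVIVT00036443001), VvAOX2 a mitochondrial alternative oxidase (GSVIVT00003173001) and VvCAT1 a catalase (GSVIVT00004080001). The sequences are 5′ to 3′ and come from the study's primer table.
VvHB2 forward: ggctgtttttgttatgacttgtgaa
VvHB2 reverse: ctcactgtcactttgccagctt
VvAOX2 forward: gacgggctcggaaaatgg
VvAOX2 reverse: ggcacgccccagtagct
VvCAT1 forward: ggacaggcaagagcgtttca
VvCAT1 reverse: ggtgacccttggatcagacaa

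Between 83.6% and 89.9% of probes were well above background in Cy5 on the 6 arrays, and 26395 probes were tested. The third HC array had the lowest median Cy5 signal, 234 against 261 in its Cy3, whereas Cy5 exceeded Cy3 on the other 5. The log2 ratios were spread more widely on the HC arrays (SD 0.79 to 0.97) than on the P arrays (SD 0.46 to 0.58). The labelled tissue could be checked only in part: the dormancy-associated probe and both probes for chlorophyll-bearing tissue were well above background on all 6 arrays and none passed the test, and no probe description matched the meristem or vascular markers.

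HC and P buds differed at 1710 probes. After HC 883 probes were higher than after P (3.35% of those tested) and 827 were lower (3.13%), at an adjusted p under 0.05 (limma, Benjamini-Hochberg over all 26395 probes) and a difference of at least 1 on the log2 scale. The 3 HC and 3 P values did not overlap at any of the 883 and at 826 of the 827, and they did not overlap at 29.7% of all tested probes. The higher probes lay further apart: 373 of them differed by at least 2 and 145 by at least 3, compared with 182 and 33 of the lower ones. Higher probes made up 51.6% of those called, 61.8% after background correction with loess, and 41.3% where the arrays were scaled to 1 spread. Leaving out the second P array left 649 higher and 418 lower, leaving out the third P array 636 and 477, and leaving out the second HC array gave 1090 and 1314.

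The water control placed these differences. Among the 883 higher probes, the median level was 1.80 above control after HC and -0.03 after P. HC alone was called higher than control at 709 of them, both treatments at 33, and neither at 125 (background: 5.16% of tested probes higher after HC and 2.75% after P). P alone was called, below control, at 14, and the treatments were called on opposite sides at 2 (background: 0.572% lower after P). The 827 lower probes were split between the treatments, with a median of -0.99 after HC and 0.56 after P. At 378 of them only HC was called, below control (background 4.75%), at 222 only P was called, above control, at 18 HC was called below and P above, at 3 both below, and at 206 neither was called.

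**Figure D1:**
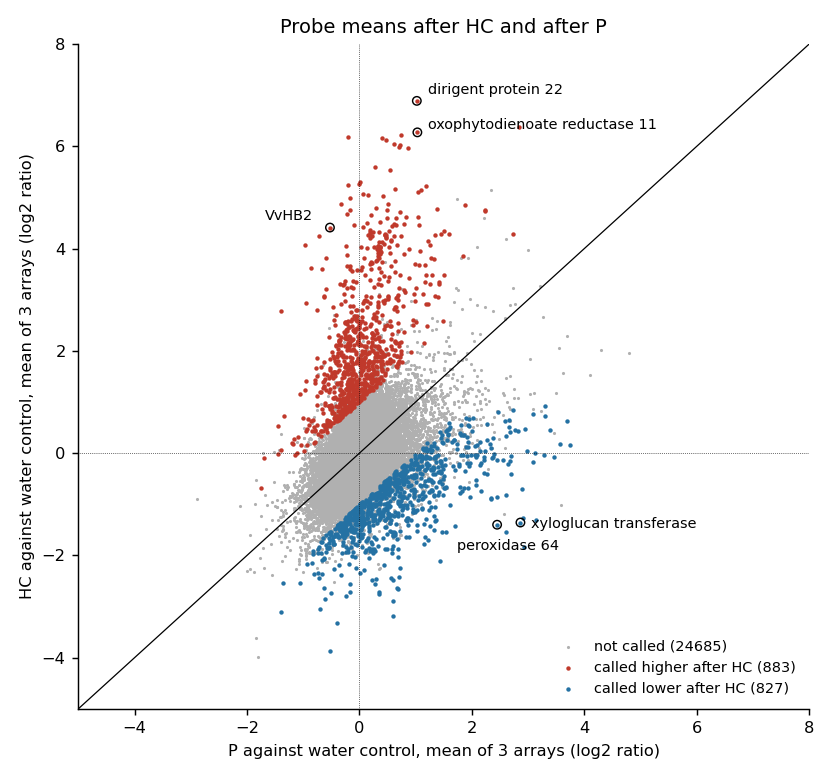
Mean log2 ratio to the water control after P (horizontal axis) and after HC (vertical axis) for the 26395 tested probes, 3 arrays per treatment, with the probes called in HC minus P in colour. The 883 higher probes include 709 called above the control only after HC, while among the 827 lower probes 378 are called only after HC, below the control, and 222 only after P, above it.

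Transcription factors of the ethylene-responsive (ERF) and WRKY families were called higher after HC, the ERF genes with the larger differences. The ERF098-like gene (GSVIVT00020219001), of the ERF family that acts in ethylene and defence signalling, read 6.26, 4.95 and 7.32 on the HC arrays and 0.00, -0.14 and -0.49 on the P arrays. Its Cy5 signal was well above background on all 3 HC arrays and on no P array, and the Cy3 control was so on the 3 HC arrays and on no P array. The probe was thus tested through the HC arrays, where it is high, and its P ratios hold no measured level, so no fold or p is given for it.

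In another member, ERF 1B-like (GSVIVT00002192001), Cy5 was well above background on all 6 arrays and the Cy3 control on 2 of 3 in each group. It gave 6.18, 4.55 and 5.20 after HC and 1.48, -0.66 and -0.79 after P, a difference of 5.30 ± 0.65 (SE, adjusted p = 0.0018). ERF 1B (GSVIVT00020221001), known in Arabidopsis as a node where ethylene and jasmonate signals meet, was above the control on each HC array at 2.72, 2.25 and 3.40, and below it on each P array at -0.75, -0.77 and -0.72. The difference was 3.54 ± 0.29 (SE, adjusted p = 0.0003), or 11.6-fold. Not all of the family went this way. ERF061 (GSVIVT00002438001) read -0.32, -0.19 and -1.08 after HC and 1.81, 2.19 and 2.20 after P, a fall by 2.60 relative to P (SE 0.44, adjusted p = 0.0081) that was lost after background correction, with Cy5 well above background on 1 of 3 HC arrays. WIN1 (GSVIVT00000349001), a regulator of cuticle wax in Arabidopsis, and the pair ERF105 and ERF105-like were lower by 1.5, 1.21 and 1.22. This group of 3 comes from the study's tables, and all 3 lost their call after background correction, WIN1 with a difference of -0.38 under loess.

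Of 13 ERF genes found by homolog description none was higher after HC and 1 was lower, and of 25 more in the study's tables, 7 were higher and 3 lower (median 0.41). The 7 include the ERF098-like gene, which has no measured level on the P arrays. Over all 417 tested probes named in those tables, the share to read such counts against, 14.4% were higher and 4.56% lower. Without the second or the third P array the higher count was 4. Of 20 WRKY genes in the tables, a family of defence and stress regulators, 7 were higher and none lower (median 0.23), and the single WRKY gene found by homolog description was not called. WRKY 75 (GSVIVT00002773001) was tight within each group, at 2.54, 2.67 and 2.75 after HC and -0.12, 0.15 and 0.12 after P, a difference of 2.60 ± 0.24 (SE, adjusted p = 0.00055). WRKY 40-like (GSVIVT00037648001), whose Arabidopsis homolog restrains defence responses, differed by 2.41 ± 0.26 (SE, adjusted p = 0.00094). Of 10 heat stress transcription factors in the tables, 2 were higher, a share near that over all table genes. A-2e (GSVIVT00021673001) lay at 1.42, 1.87 and 1.86 after HC and just below the control, at -0.44, -0.42 and -0.18, after P, while B-3 (GSVIVT00025614001) differed by 1.82 (SE 0.18, adjusted p = 0.00065). Among 24 heat shock proteins found by homolog description, the targets of such factors, 1 was higher and none lower, and that 1, a small heat shock protein (GSVIVT00018510001) with a difference of 1.29, lost its call when any single P array was left out.

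The phenylpropanoid route turns phenylalanine into lignin precursors and stilbenes. Of 11 phenylpropanoid and lignin synthesis genes found by homolog description, 1 was higher (a cinnamoyl-CoA reductase relative) and none lower (median -0.03), and none of 3 more in the study's tables was called (median -0.12). Single genes named for steps upstream of it or within it were higher after HC. A gene described as shikimate kinase family (AT2G16790; GSVIVT00014074001) carries the name of a step in the route to the aromatic amino acids. Whether it acts in that step was not tested. It measured 4.26, 3.84 and 4.95 after HC and 0.04, 0.69 and 0.82 after P. The groups were far apart, with a difference of 3.83 ± 0.34 (SE, adjusted p = 0.00042). Cytochrome P450 CYP73A100 (GSVIVT00017017001), of the cinnamate hydroxylase family, read 4.27, 3.85 and 5.25 against 0.69, 1.35 and 1.14, or 10.6-fold more after HC (adjusted p = 0.0017).

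Stilbene synthases make resveratrol, the defence compound of grapevine. Of 8 in the study's tables, 7 were higher after HC and none lower, with a median difference of 2.59, and the count was 3 where the arrays were scaled to 1 spread. A further 2 probes described only as chalcone and stilbene synthase family were not called. The stilbene synthase 4 probe GSVIVT00005194001 read 6.47, 5.09 and 3.74 after HC, with a wide spread among the arrays, and 1.00, 0.80 and 1.34 after P. The difference of 4.05 ± 0.63 (SE, adjusted p = 0.0057) was 16.6-fold. A stilbene synthase 4-like probe (GSVIVT00007353001) varied less, at 4.80, 4.73 and 4.34 against 1.12, 0.75 and 1.24 (difference 3.59, adjusted p = 0.00066). The stilbene synthases are near-identical copies, and whether their probes bind each other's transcripts was not tested, so the 7 calls may not be separate measurements.

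Dirigent proteins guide the coupling of phenolic radicals into lignans. Dirigent protein 22 (GSVIVT00024744001) stood at 7.48, 5.63 and 7.55 after HC and at 1.16, 0.64 and 1.26 after P, 58.4-fold apart (difference 5.87 ± 0.47, SE, adjusted p = 0.00028). Among 6 dirigent genes found by homolog description 1 was higher and 1 lower. Of 4 more in the study's tables, 3 were higher (median 3.05), among them dirigent protein 7 (GSVIVT00024739001), whose difference of 3.54 lost its call where the arrays were scaled and whose Cy3 control was well above background on 1 of 3 HC arrays and on no P array. The lower one, GSVIVT00002504001 (AT4G23690), stood at -1.86, -0.83 and -1.22 after HC and 0.53, 1.61 and 1.96 after P. It was lower by 2.67 (SE 0.52, adjusted p = 0.014), with adjusted p = 0.06 without the second P array and 0.058 without the third. Terpene synthesis genes of the study's tables gave 2 higher of 7, those found by homolog description 1 lower of 2, and valencene synthase-like (GSVIVT00021769001) among them lost its call when any array other than the second P array was left out.

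**Figure D2:**
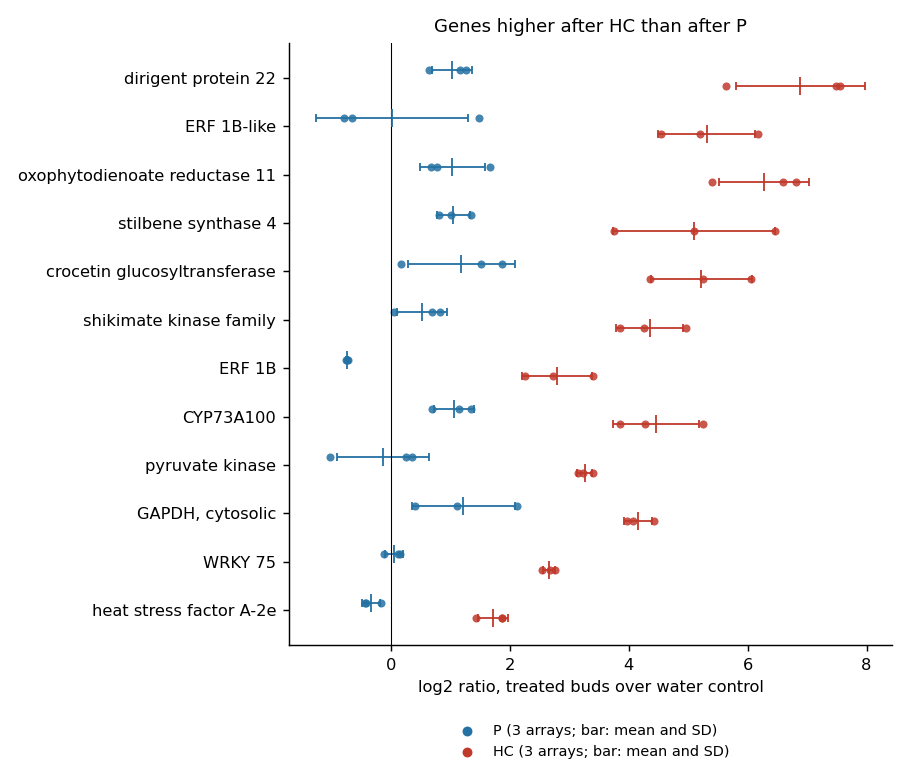
Log2 ratio to the water control on each P array (blue) and each HC array (red) for named genes higher after HC, with bars for the mean and SD of 3 arrays. The HC values lie to the right of the P values in every gene shown, most widely in dirigent protein 22 (5.87), ERF 1B-like (5.30) and the oxophytodienoate reductase (5.24).

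Several genes that reduce, conjugate or export small molecules were also higher after HC. The largest difference among those named was that of the putative 12-oxophytodienoate reductase 11 (GSVIVT00021918001), of the family of flavin-dependent reductases that includes the enzyme of jasmonate synthesis. It read 6.60, 5.40 and 6.81 after HC and 1.66, 0.76 and 0.67 after P, both above the control, which was dim in Cy3 (well above background on 1 of 3 HC and 2 of 3 P arrays), and 37.8-fold apart (difference 5.24 ± 0.39, SE, adjusted p = 0.0002). With 4 probes for FQR1-like quinone reductases, which reduce quinones without forming radicals and differed by 1.90 to 1.99, all 5 such genes in the study's tables were higher. Those probes gave almost equal values, and whether they share targets was not tested. None of 3 quinone reductases found by homolog description was called.

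Glycosyltransferases attach sugars to phenolics and hormones. The crocetin glucosyltransferase gene GSVIVT00003476001 was at 5.25, 4.36 and 6.05 after HC and at 0.16, 1.87 and 1.51 after P, 16.4-fold apart (adjusted p = 0.0019). Of 9 glycosyltransferases in the study's tables, 3 were higher, against 14.4% over all genes in them. These include GSVIVT00003473001, with Cy5 well above background on all 3 HC arrays but on 1 of 3 P arrays, and Cy3 on no P array. Among 13 found by homolog description 1 was higher and 1 lower. MATE and ABC carriers, which export toxins and metabolites, went both ways: of 33, 2 were higher and 2 lower (5 lower with the replicate number as a block). MATE gene AT4G23030 (GSVIVT00001094001) read 3.91, 3.25 and 2.93 after HC and 1.00, -0.34 and 0.89 after P, a difference of 2.85 (SE 0.43, adjusted p = 0.0052), while MATE gene AT3G21690 (GSVIVT00026028001) was lower after HC by 1.54 (adjusted p = 0.0072). A primary amine oxidase (GSVIVT00019973001), an enzyme that releases hydrogen peroxide from amines, read 4.07, 3.67 and 4.48 after HC and 0.54, 1.49 and 1.74 after P (difference 2.82, adjusted p = 0.0027, lost where the arrays were scaled).

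The nitrilases, which include the enzymes that in other plants act on cyanide products, were not called in this contrast. All 3 nitrilase 4B genes were between 1.21 and 1.35 higher on average after HC and none was called. GSVIVT00003689001 read 2.03, 3.27 and 2.62 after HC and -0.78, 1.99 and 2.66 after P (adjusted p = 0.4), so the groups overlapped and the first P array alone was low. Sulfate transporter 3.5 (GSVIVT00016767001) gave 4.03, 5.10 and 5.75 against -0.37, 2.80 and 2.79, with no overlap, a difference of 3.22 and adjusted p = 0.063.

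Energy metabolism differed at single genes and not across its lists. Hemoglobin VvHB2 (GSVIVT00036443001), of a family that scavenges nitric oxide under low oxygen, read 3.73, 4.71 and 4.79 after HC and -1.37, 0.02 and -0.22 after P. The difference of 4.94 ± 0.49 (SE, adjusted p = 0.00065) was 30.6-fold. Alternative oxidase VvAOX2 (GSVIVT00003173001), which passes electrons to oxygen past the cytochrome path, gave 1.73, 2.98 and 2.58 against 0.13, 0.56 and 0.64, a difference of 1.99 ± 0.32 (SE, adjusted p = 0.007).

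Pyruvate kinase (AT5G56350; GSVIVT00024850001), the last enzyme of glycolysis, was at 3.14, 3.23 and 3.39 after HC and at 0.25, -1.03 and 0.35 after P, a difference of 3.40 ± 0.51 (SE, adjusted p = 0.0051). Cytosolic glyceraldehyde-3-phosphate dehydrogenase (GSVIVT00035097001), a mid-glycolysis enzyme that the study's tables list, read 3.98, 4.08 and 4.42 against 0.40, 2.12 and 1.11, 7.7-fold apart (adjusted p = 0.0038). Yet among 19 glycolysis probes found by homolog description, pyruvate kinase was the 1 called, and the median difference was -0.07. The group of 7 hypoxia and fermentation genes had 2 higher (median -0.13). These were a hypoxia-responsive family gene (AT3G05550; GSVIVT00033006001), at 1.95, 1.07 and 2.07 against 0.46, 0.14 and 0.07, and a gene described as pyruvate decarboxylase family (AT5G17380; GSVIVT00006281001). The latter entered the list by this description, and whether it acts in fermentation was not tested. Its difference of 1.14 lost its call without the third P array (adjusted p = 0.051) and fell to 0.93, under the limit, without the second HC array. None of 25 respiratory chain probes was called in either direction (median 0.11).

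Several cell wall genes were lower after HC, and those named here stood above the control after P. Xyloglucan endotransglycosylases cut and rejoin the xyloglucan that ties cellulose fibres together. GSVIVT00006913001 (AT1G11545) read -2.63, -0.36 and -1.08 after HC and 3.47, 3.15 and 1.96 after P, on opposite sides of the control. It was 18.6-fold higher after P (difference -4.22 ± 0.65, SE, adjusted p = 0.0057). GSVIVT00033487001 (AT3G23730) showed the same order at -0.56, -0.32 and -1.59 against 1.17, 1.94 and 1.37, 4.98-fold higher after P (adjusted p = 0.0059). These 2 were the called members of 5 expansin and xyloglucan genes found by homolog description (median -0.27), and none of 4 more in the study's tables was called (median 0.11).

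Of 41 pectin-modifying genes 5 were lower after HC (12.2%) and none higher, where probes with a homolog description were lower in 3.38% and higher in 1.59%. The count was 2 without the second or the third P array, and none of 5 more in the study's tables was called (median -0.15). Pectate lyase AT3G53190 (GSVIVT00000608001), of the family that cleaves pectin, was at the control level after HC, at 0.28, 0.03 and -0.06, and above it after P, at 1.58, 2.12 and 1.51 (difference -1.65, adjusted p = 0.0031). An invertase and pectin methylesterase inhibitor family gene (AT5G62360; GSVIVT00029887001) read -0.11, -1.05 and -1.35 after HC and 1.50, 1.09 and 0.90 after P, lower by 2.0 after HC (adjusted p = 0.0084). The beta-1,3-glucanase AT2G01630 (GSVIVT00030570001), of the family that degrades callose, followed it at 0.01, 0.58 and 0.19 against 1.54, 1.75 and 1.40 (adjusted p = 0.0066). Another glucanase, GSVIVT00022221001 of the study's tables, went the other way and was 2.96 higher after HC (adjusted p = 0.015), although its call was lost where the arrays were scaled. Extensins and proline-rich proteins, which stiffen the wall, gave 2 lower of 41, and none of 8 more in the study's tables was called (median -0.94).

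Class III peroxidases, secreted enzymes that use hydrogen peroxide to cross-link or loosen walls, were lower after HC in 7 of 25 probes found by homolog description (28%) and higher in none, with a median of -0.33 and 21 of the 25 below 0. Over all 6725 probes with a homolog description, 3.38% were lower and 1.59% higher, and 3924 lay below 0. Of the 25 peroxidases, the study's tables also hold 16, which were chosen on these same arrays. Over all table genes 4.56% were lower. With any single array left out the lower count was 3 to 5. Of 17 more in those tables, 4 were lower and 1, peroxidase 7, was higher, and their median was 0.57. Peroxidase 64 was represented by 2 probes, both lower. GSVIVT00011734001 read -2.37, -0.34 and -1.50 after HC and 1.25, 3.13 and 2.96 after P, 14.4-fold higher after P (adjusted p = 0.01), and GSVIVT00015486001 read -1.47, -1.33 and -1.79 against 0.52, 1.44 and 1.09. The latter lost its call after background correction. Peroxidase 47 (GSVIVT00003644001) was below the control on every HC array, at -2.18, -1.50 and -1.97, and near it after P, at -0.08, 0.58 and 0.16 (difference -2.11 ± 0.24, SE, adjusted p = 0.0013). For peroxidase 7 (GSVIVT00002117001), Cy5 was well above background on all 3 HC arrays and on 1 of 3 P arrays. Its Cy3 control was so on 1 of 3 arrays in each group. Between HC and P it could thus pass the filter only through HC, where it is high, so no fold or p is given for it. Its difference was 0.86, under the limit, after background correction with loess.

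**Figure D3:**
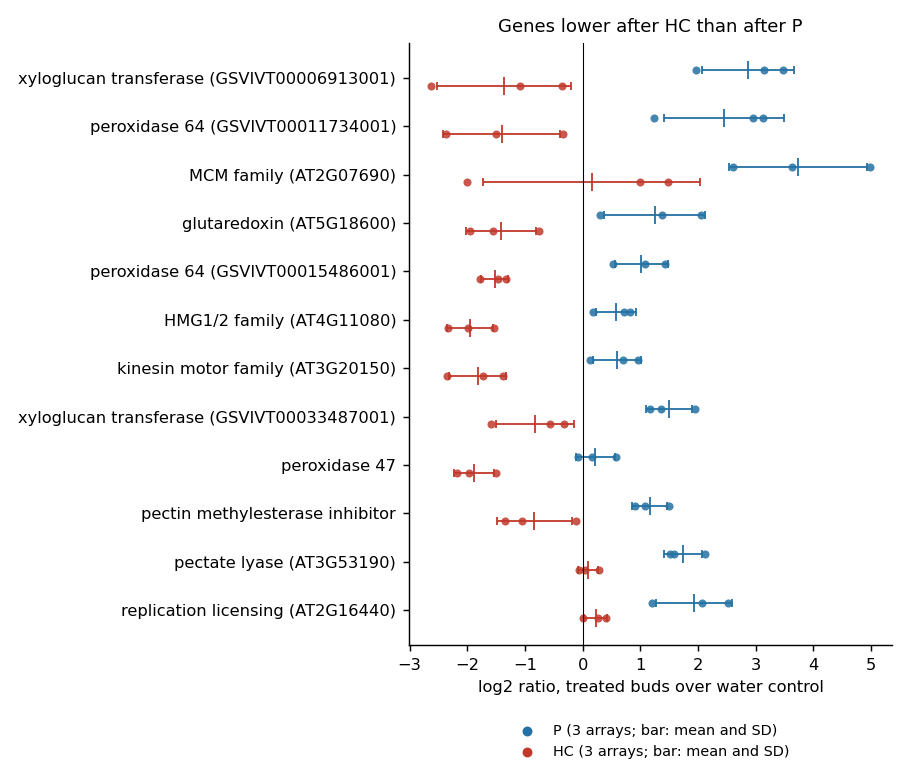
Log2 ratio to the water control on each P array (blue) and each HC array (red) for named genes lower after HC, with bars for the mean and SD of 3 arrays. The P values lie to the right of the HC values in every gene shown, most widely in the xyloglucan gene GSVIVT00006913001 (-4.22), and the HC values of the MCM gene lie on both sides of the control.

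Cell division and DNA replication genes lay mostly below 0 in HC minus P, and few of them passed the test. Of 53 probes 6 were called lower (11.3%) and none higher, the median was -0.37 and 41 of the 53 lay below 0. The lower count was 1 without the second or the third P array, 3 without the first P or the third HC array, 11 without the second HC array and 2 after background correction with loess. Over all 6725 probes with a homolog description 3.38% were lower and 1.59% higher, the median was -0.08, and 3924 lay below 0. Neither of 2 more genes in the study's tables was called (median -2.16). A kinesin (AT3G20150; GSVIVT00027214001), a motor that moves along microtubules, read -1.37, -1.73 and -2.36 after HC and 0.96, 0.70 and 0.13 after P. The groups lay on opposite sides of the control, 2.42 apart (SE 0.39, adjusted p = 0.007), and the call was lost after background correction.

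The minichromosome maintenance (MCM) genes encode the helicase that opens DNA for replication. MCM gene AT2G07690 (GSVIVT00005616001) was above the control on 2 HC arrays and below it on the third, at 1.48, 0.99 and -2.0, and above on all P arrays, at 2.61, 4.99 and 3.62. Its difference of -3.59 ± 0.91 (SE, adjusted p = 0.039) was not called without the second P array (adjusted p = 0.14), without the third P array (0.11) or without the third HC array (0.05), the array with low Cy5 signal. The related licensing factor AT2G16440 (GSVIVT00035935001) measured 0.27, 0.41 and 0.00 against 1.21, 2.52 and 2.07 (adjusted p = 0.032) and lost its call when any array other than the first P or the second HC array was left out. Licensing factor AT5G46280 (GSVIVT00003433001) read 0.57, 1.28 and -1.54 against 1.67, 3.52 and 2.58 and did not pass (adjusted p = 0.06). A high mobility group family gene (AT4G11080; GSVIVT00002453001), named for chromatin proteins that bend DNA, separated the groups more tightly at -1.98, -1.54 and -2.34 against 0.72, 0.82 and 0.18 (difference -2.53 ± 0.24, SE, adjusted p = 0.00059). None of 4 histone probes was called.

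Enzymes that handle thiols and peroxide were called only on the lower side among probes found by homolog description. Of these 23 antioxidant probes, 4 were lower and none higher (median -0.06), and all 4 were glutaredoxins, small proteins that reduce disulfides with glutathione. Over all probes with a homolog description, 3.38% were lower and 1.59% higher, so in a list of this size none higher is near that share. Glutaredoxin AT5G18600 (GSVIVT00019806001) fell below the control after HC, at -1.95, -1.56 and -0.76, and was above it after P, at 2.05, 1.38 and 0.31, a difference of -2.67 (SE 0.45, adjusted p = 0.0079). Glutaredoxins AT3G62950 (GSVIVT00023582001) and AT2G47880 (GSVIVT00023583001) lost their calls without the first or the second P array, and the latter also without the second or the third HC array. Catalase VvCAT1 (GSVIVT00004080001), which breaks down hydrogen peroxide, read -1.54, -1.53 and -1.48 after HC and 0.00, -0.54 and -0.50 after P. It was 2.25-fold lower after HC (difference -1.17 ± 0.20, SE, adjusted p = 0.008). Its difference came to -1.0 without the first P array, -0.87 with the arrays scaled and -0.82 in Cy5 alone, below the limit in each case. After background correction and median centring its limma adjusted p was 0.067. A further catalase probe (GSVIVT00004081001) had a difference of -1.04. It lost its call when any array other than the second HC array was left out. Of 9 more antioxidant genes in the study's tables, 2 were lower and none higher, where 4.56% of all table genes were lower.

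The study followed 12 genes of peroxide and oxygen metabolism by qRT-PCR, and on the arrays 3 of them differed between HC and P: VvHB2 and VvAOX2, higher, and VvCAT1, lower. The respiratory burst oxidases make superoxide at the cell surface. VvRBOHA (GSVIVT00002525001) read -1.73, -0.97 and -1.90 after HC and -0.70, -0.70 and -0.53 after P, below the control throughout and without overlap, but its difference of -0.89 did not pass (adjusted p = 0.062). VvRBOHE (GSVIVT00016386001) was 0.65 higher with overlapping groups (adjusted p = 0.21). Ascorbate peroxidase VvAPX3 (GSVIVT00036747001), which reduces peroxide with ascorbate, was lower on every HC array, at -0.97, -1.22 and -0.96 against -0.71, -0.71 and 0.00, by 0.58 (adjusted p = 0.12). The iron superoxide dismutases VvFSD (GSVIVT00014163001) and VvFSD3 (GSVIVT00007083001) differed by -0.17 and -0.24, and the glutathione peroxidase VvGPX2 (GSVIVT00001920001) by -0.06.

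Some of the 12 varied more within a treatment than between treatments. Alpha-dioxygenase VvDOX1 (GSVIVT00020782001), which oxidises fatty acids, read 1.77, 3.05 and 3.64 after HC and -0.48, 2.70 and 3.26 after P (adjusted p = 0.52). Peroxidase VvPOD72 (GSVIVT00031598001) read 2.64, 3.81 and -0.18 against 3.11, 0.70 and 0.95 (adjusted p = 0.78), and VvPOD12 (GSVIVT00031723001) differed by 0.05. A p above the threshold in 3 arrays against 3 does not show that these genes responded alike.

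**Figure D4:**
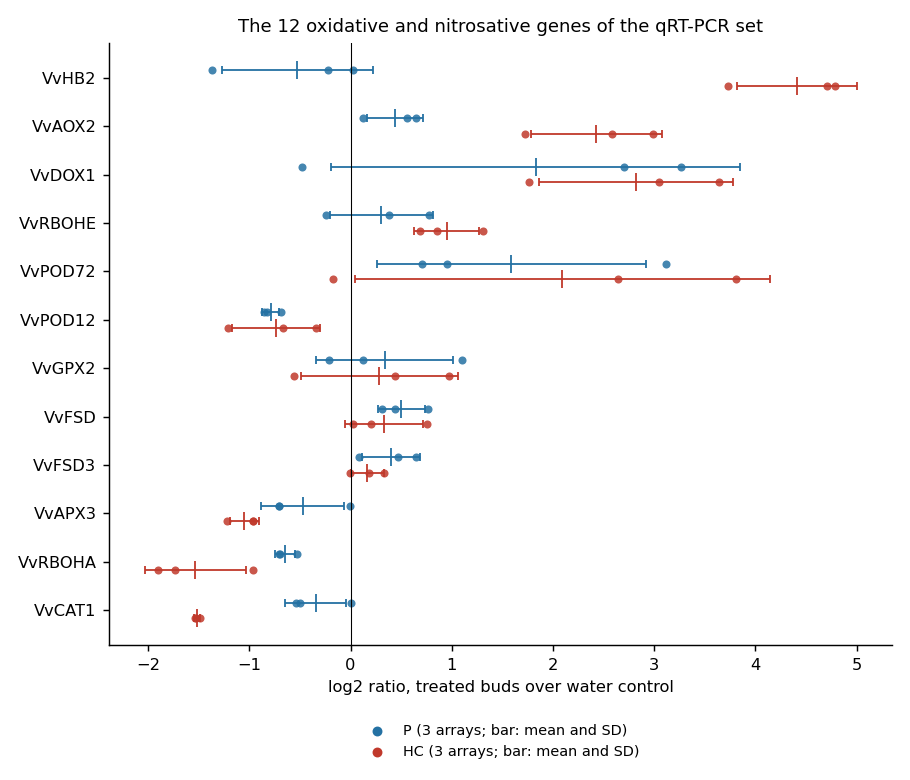
Log2 ratio to the water control of the 12 genes that the study followed by qRT-PCR, on each P array (blue) and each HC array (red), with bars for the mean and SD of 3 arrays. The groups stand clear of each other in VvHB2, VvAOX2 and VvCAT1, and also in VvRBOHA and VvAPX3, which did not pass the test, while in VvDOX1, VvPOD72 and VvPOD12 they overlap.

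Some genes lay above the control on every array of one treatment and below it on every array of the other. This held for 293 of the 883 higher probes and 339 of the 827 lower ones. Probes chosen for a large difference between HC and P are likelier to lie on opposite sides. The share over all tested probes was not counted, so these counts are descriptions. Among those above the control after HC were a short-chain dehydrogenase family gene (AT4G13180; GSVIVT00025486001), at 1.28, 2.22 and 1.86 after HC and -0.75, -0.54 and -0.59 after P, and a ripening-responsive gene (AT5G65380; GSVIVT00011453001), at 1.96, 1.67 and 2.05 against -0.07, -0.65 and -0.67. Their differences were 2.41 (adjusted p = 0.0029) and 2.36 (adjusted p = 0.00039). On the other side stood the xyloglucan endotransglycosylases, both peroxidase 64 probes, the glutaredoxin AT5G18600, the kinesin, and a prephenate dehydrogenase family gene (AT1G15710; GSVIVT00003278001), named for an enzyme of tyrosine synthesis and lower after HC by 2.32 (adjusted p = 0.0018).

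Other lists held few or no called genes. Among 76 receptor-like kinases, which sense signals at the cell surface, 3 were higher and 5 lower (median -0.38, 55 below 0). Over all 6725 probes with a homolog description, 1.59% were higher and 3.38% lower, and 3924 lay below 0. These shares are the ones to read the homolog counts of this paragraph against. In the study's tables, 11 more of these kinases had 2 higher, none lower and a median of 0.64. Over all table genes 14.4% were higher, a share near that of these 11. Of 91 ubiquitin ligases, which mark proteins for breakdown, 3 were higher and none lower, and of 6 more in the tables, 2 were higher. Among genes found by homolog description, none of 111 ribosomal proteins (median -0.02), 22 abscisic acid and seed protein genes, 18 sucrose and sugar transport genes or 12 pathogenesis-related genes was called in either direction by limma's adjusted p and fold limit. Of 3 more sucrose and sugar genes in the tables, a cell wall invertase (GSVIVT00034185001), which splits sucrose outside the cell, was 1.73 higher (adjusted p = 0.014) and lost its call without the first or the second P array and where the arrays were scaled. Auxin genes gave 1 lower of 22 and photosynthesis genes 1 lower of 10. The lower photosynthesis gene, a RuBisCO activase homolog (AT1G73110; GSVIVT00025198001) of the enzyme that keeps carbon fixation active, was down by 1.19 after HC (adjusted p = 0.0091) and lost its call after background correction.

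**Figure D5:**
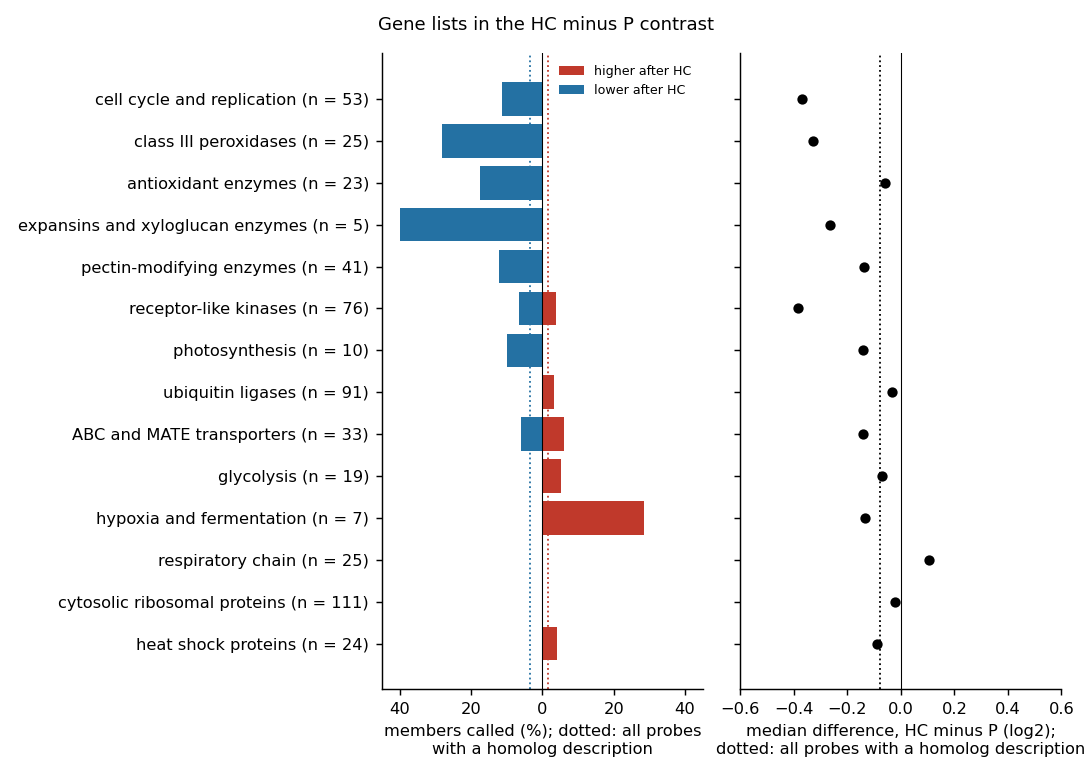
For each gene list, over members found by homolog description, the percent of tested members called higher (red, right) or lower (blue, left) after HC in the left panel, and the median difference HC minus P on the log2 scale in the right panel. Dotted lines mark 1.59% higher and 3.38% lower, the shares over all probes with a homolog description. Peroxidases, pectin-modifying genes and the cell cycle list reach 28%, 12.2% and 11.3% lower, and the long bars of the expansin and hypoxia lists stand for 2 of 5 and 2 of 7 genes. Of the 25 peroxidases, 16 are also in the study's tables, whose genes were chosen on these same arrays, so their bar and the dotted line are not alike. The lower counts of the peroxidase, pectin and cell cycle lists were smaller without the second or the third P array.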

How the data were processed

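The deposited data were 9 two-channel Agilent arrays of bud RNA. The authors scanned them with Agilent Feature Extraction 10.5 and normalized dyes by rank-consistent LOWESS; per the file headers each array gives the log2 ratio of Cy5 over Cy3 and background-subtracted channel intensities, with a p-value for each spot's own ratio, which the deposited files carry from the scanner software and which was not used. The deposited series table holds the same log2 ratios to within 0.005. A genome build is not given in the sources used here and none was needed.

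Log2 ratios were fitted over all 9 arrays with a mean per treatment and no block (limma 3.58.1, R 4.3.3), with residual df 6. The contrast HC minus P was tested on both sides. A probe entered if Cy5 or Cy3 was flagged as well above background on each of the 3 arrays of some treatment, which left out 3733. Of the values, 81 flagged as outliers were dropped, and 36 tested probes lacked such a value on an HC or P array. No spot was saturated. Array number limits the precision. The script was tested on simulated data.

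Named genes were the 12 of the qRT-PCR set, the 15 largest non-overlapping differences in each direction with a measured signal and an informative name, the 3 largest called members of each of 48 lists built from words in the descriptions, the 8 largest on opposite sides of the control, and the 2 largest of lists with no call. Words that matched by accident were left out after values were seen. Members and lists were chosen with earlier results of these data known. Same-numbered HC and P arrays deviated together (correlations 0.56, 0.25 and 0.35), and their Cy3 channels correlated at 0.996 to 0.999, which by the rule used here marks them as pairs. For arrays of different numbers the deviations correlated at -0.55 to 0.08 and the Cy3 channels at 0.983 to 0.996, so the Cy3 ranges nearly meet. The methods describe randomized complete blocks but do not tie the numbers to them and name no block in the test, so the printed calls come from the fit without a block and the blocked fit is an alternative. Alternatives covered background correction, scaling, filter, call rule, moderation, weights, block and each array left out.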

Additional observations from a re-analysis of the deposited data

How the results depend on the processing

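The main counts were 883 higher and 827 lower after HC. Both moved by over 1.5 times when tested against a 2-fold limit (204 and 35) and with array quality weights (1398 and 1557). The lower count alone moved with background correction and loess (435), background correction and median centring (504), arrays scaled to 1 spread (1278), unadjusted p (1265), no fold limit (1521) and no moderation (529). Leaving out 1 array gave 636 to 1090 higher and 418 to 1314 lower. With the replicate number as a block the counts were 980 and 1156, no named gene changed its call, and 4 of 50 list counts moved by over 1.5 times, between 1 and 5 genes each. Requiring both channels well above background on all 6 arrays, chosen after seeing the data, gave 812 and 742. The causes were not tested. Of 105 named called genes, 17 lost the call under none of the 21 alternatives and 69, those 17 included, lost it under at most 3. An alternative that did not test a gene was not counted as a loss. Of the 105, 89 were tested where Cy5 had to be well above background on all 6 arrays, and 78 where both channels had to be. Differences that reversed belonged to genes not called: VvPOD12 (-0.11 with median centring, -0.38 with weights, -0.15 to 0.28 with 1 array left out), VvDOX1 (-0.36 scaled, -0.66 weighted, -0.16 to 1.71 with 1 array left out), VvPOD72 (-0.25 scaled, -0.36 to 1.64 with 1 array left out), VvGPX2 (0.79 weighted, -0.40 to 0.36 with 1 array left out) and VvFSD (0.18 weighted). The 1 called exception was the BTB/POZ gene GSVIVT00021238001, at 1.56 and at -0.11 scaled.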

Other observations

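The buds given both treatments offered a side view of the genes that separated HC from P. At the 883 probes higher after HC, the median ratio to control was 1.80 after HC, -0.03 after P and 1.10 after PHC. At the 827 lower probes it was -0.99, 0.56 and 0.44. PHC was above both single treatments at 411 of the lower probes and below both at 81. At the higher probes it was above both at 87 and below both at 94. Over all 26395 tested probes it was above both at 9097 and below both at 10660. PHC lay nearer HC at 55.0% of the higher probes, 25.5% of the lower ones and 40.7% of all tested probes. These shares are descriptions, since the probes were chosen by the HC and P values. The xyloglucan endotransglycosylase GSVIVT00006913001 had a PHC mean of 4.40, above its P mean of 2.86, whereas catalase VvCAT1 had -1.57, close to its HC mean of -1.52.

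Most of the called probes had no name in the files or tables: 723 of the higher and 590 of the lower. Of all tested probes 26.7% had a name, so most tested probes were unnamed too. GSVIVT00021914001 was 5.76 higher after HC (limma adjusted p = 0.00014) with a PHC mean of 5.06, and GSVIVT00025519001 was lower by 4.77 (limma adjusted p = 0.0052), with means of -1.83 after HC, 2.93 after P and -0.74 after PHC. The probe GSVIVT00025518001, next to it by identifier, was lower by 4.19 with a PHC mean of -0.63.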
